A study of Mus musculus and Canis lupus familiaris and Equus caballus with 9 samples.

Results

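The genes described are 48 listed mouse axon guidance genes. The ligands are netrins, Slits and ephrins. The receptors are Unc5, Dcc, Robo and Eph receptors, with neuropilin and plexin receptors of semaphorins. The 48 were listed by gene family, with earlier results of these data known. They comprised 33 receptor and 15 ligand genes of the 21883 protein-coding genes on placed chromosomes. NRSF, also called REST, was mapped by ChIP-seq in RAW264.7, an established macrophage line from BALB/c mice, at passages 13 to 15. The 2 samples immunoprecipitated with an NRSF monoclonal antibody share 1 deposited list of 2357 peaks, and 1 input DNA sample without antibody accompanied them. Chromatin was fixed with 1% formaldehyde. Dog and horse cell lines make up the other samples of the 9. With 1 list and no value per replicate, replicate error could not be given, and an input level for each peak was not used here. The list holds no expression values, so the macrophage label could not be checked against marker genes.

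In cells other than neurons, NRSF recruits corepressors to neuronal genes through its DNA element and keeps them off. Axon guidance cues steer growing nerve fibres: netrins attract through Dcc and repel through Unc5 receptors, Slits repel through Robo receptors, and membrane-bound ephrins signal to Eph receptor kinases on touching cells. Semaphorins act through plexins, often with a neuropilin as co-receptor. Several of these proteins also act outside the nervous system, among them plexins and Unc5b in macrophages and other leukocytes.

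The promoter windows of the receptor genes Epha10 and Unc5a are shown because these genes had the peaks nearest to a start site among the members with a start site in the RefSeq table. The windows run from 250 bases before to 50 bases after the start site and come from RefSeq on GRCm38.p6. The third sequence, from a promoter window of the LIM-homeodomain gene Lhx3 that overlaps a peak, is shown for the 2 arms of the NRSF element. Capitals mark the left arm CAGCACC or the right arm GGACAG on either strand.
Epha10, chr4:124881535-124881834, plus strand: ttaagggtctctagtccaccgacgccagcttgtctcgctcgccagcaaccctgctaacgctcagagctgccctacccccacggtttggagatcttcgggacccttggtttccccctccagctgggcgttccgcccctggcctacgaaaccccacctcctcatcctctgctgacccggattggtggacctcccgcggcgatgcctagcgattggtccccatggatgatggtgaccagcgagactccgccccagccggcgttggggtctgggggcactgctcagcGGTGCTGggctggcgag
Unc5a, chr13:54949161-54949460, plus strand: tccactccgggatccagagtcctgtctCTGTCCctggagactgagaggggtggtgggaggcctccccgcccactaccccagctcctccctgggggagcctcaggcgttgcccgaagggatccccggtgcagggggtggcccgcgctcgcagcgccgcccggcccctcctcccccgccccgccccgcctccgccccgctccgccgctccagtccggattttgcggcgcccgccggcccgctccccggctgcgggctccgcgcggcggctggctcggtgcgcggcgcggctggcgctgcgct
Lhx3, chr2:26208271-26208295, minus strand: tccttCAGCACCgcGGACAGcgcca

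In Lhx3 the left arm stood 2 bases before the right arm, the canonical spacing. The Epha10 window held a left arm alone, on the minus strand, and the Unc5a window a right arm alone. RefSeq windows were found for 41 of the 48 members, 47 windows in all. A left arm was present in 4 of the 47 (8.51%, exact 95% interval 2.37 to 20.4%), compared with 7.14% of all 32851 windows. A right arm was present in 14 of the 47 (29.8%, 17.3 to 44.9%), compared with 22.2% of all windows. Neither share of the members stood apart from that of all windows beyond its interval. Both arms at the canonical spacing were found in 0 of the 47 windows (exact upper limit 7.55%), compared with 12 of all 32851 (0.0365%). The 2 arms at any other spacing up to 12 bases were also found in 0 of the 47. Peaks overlapped 0 of the 47 windows (exact upper limit 7.55%), beside 145 of all windows (0.441%), so no contrast can be read from the 0. Of those 145, 8 held the canonical pair (5.52%, 2.41 to 10.6%). The arms were searched on both strands and do not overlap each other at this spacing. These letters were read in promoter windows alone, since the sequence under the members' own peaks was not used here. The Unc5a window lies inside the gene and does not cover the start of its annotated span.

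Peaks were tied to a gene by their midpoint, inside the annotated span or at most 10 kb beyond an end. By this count 10 of the 48 members had a peak (20.8%, exact 95% interval 10.5 to 35.0%), beside 1640 of all 21883 protein-coding genes (7.49%). The 10 were Unc5a, Unc5c, Unc5d, Ntng1, Slit1, Epha8, Epha10, Ephb1, Efna2 and Plxnb2, and the other 38 had none. They lay at 13 distinct peaks, with 2 peaks each at Unc5a, Unc5d and Epha10. Receptors and ligands had like shares, with 7 of 33 receptors (21.2%, 8.98 to 38.9%) and 3 of 15 ligands (20.0%, 4.33 to 48.1%). The interval of the receptors lay within the wider one of the ligands, and each included the other's share.

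**Figure D1:**
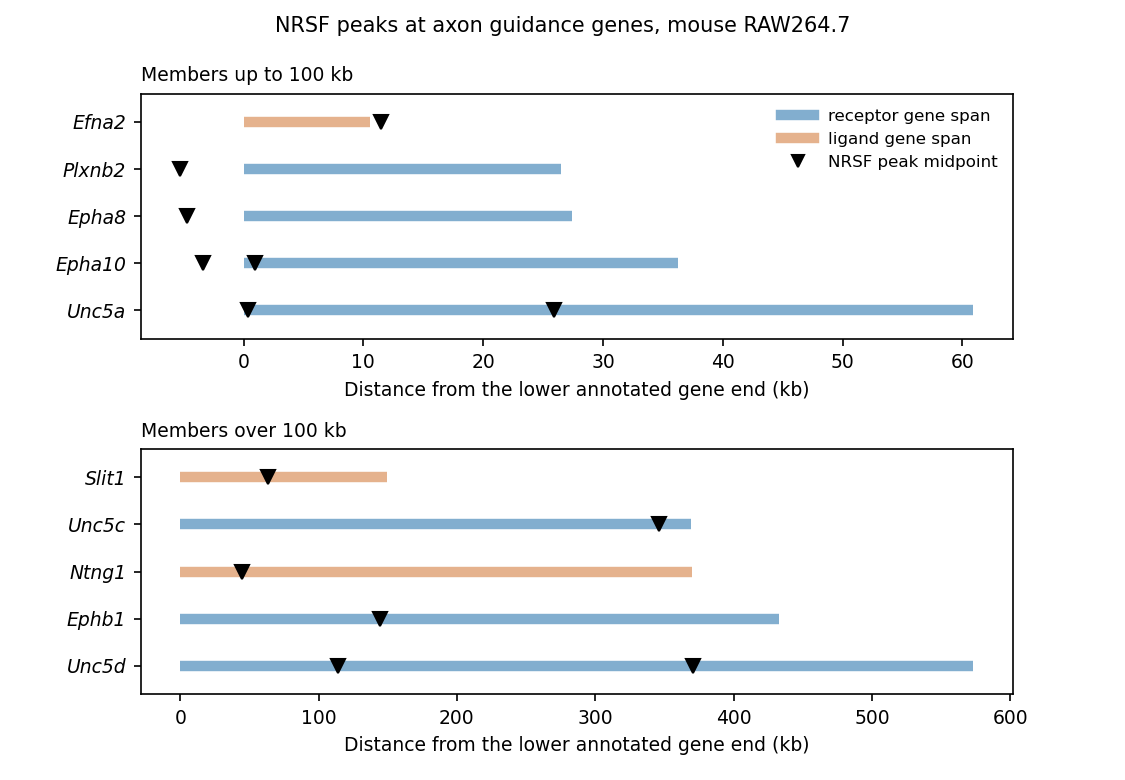
NRSF peak midpoints (triangles) along the annotated spans (bars; receptors blue, ligands orange) of the 10 members with a peak, in kb from the lower annotated gene end on mm10. Peaks stand beside or at an end of Efna2, Plxnb2, Epha8 and Epha10, and over 10 kb inside Slit1, Unc5c, Ntng1, Ephb1 and Unc5d, while Unc5a has both kinds.

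Unc5 receptors, which mediate repulsion from netrins, had the highest share of any family with more than 1 member, 3 of 4 genes. Its interval, 19.4 to 99.4%, included the 19.8% found in all protein-coding genes of the same length bins. Unc5a had a peak at 54945335 to 54945735 on chromosome 13 (mm10), 384 bp inside the lower end of its 60.9 kb span. It was 3876 bp upstream of the start site in the promoter table. The gene is on the plus strand, so its annotated span starts at that lower end and the listed start site lies inside the span. Its other peak, at 54970855 to 54971255, lay 21.6 kb downstream of that start site. The Unc5c peak, at 141811385 to 141811785 on chromosome 3, was 346 kb downstream of the start site of this 369 kb gene and 23.3 kb before its far end. Unc5d, the longest member with a peak at 573 kb, had peaks at 28760415 to 28760815 and at 29017225 to 29017625 on chromosome 8. They were 114 and 202 kb from the nearest gene end and 256810 bp from each other. No other protein-coding gene lay within 10 kb of any of these 5 peaks. A long noncoding RNA gene, Gm31313, lay within 10 kb of the Unc5a peak near the lower end. Unc5b, which binds netrin-1 and is known from blood vessels and macrophages, was the member of the family without a peak. Its closest peak lay 83.0 kb outside its 69.0 kb span.

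Dcc, the receptor for attraction by netrins, had no peak in its 1098 kb span, and the closest one was 2010 kb away. Among netrins 1 of 4 genes had a peak (25.0%, 0.631 to 80.6%), beside 7.49% of all protein-coding genes of any length. The peak was at Ntng1, which encodes netrin-G1, a membrane-anchored relative that does not act through Dcc. It lay at 109824665 to 109825065 on chromosome 3, inside the 370 kb gene, 44.8 kb from its lower end and 319 kb downstream of its start site. The secreted netrins had none: the closest peak was 1128 kb from Ntn1 and 560 kb from Ntn4. Ntng2, the other netrin-G gene, was 62.1 kb from its closest peak.

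Slit1, a ligand that repels axons through Robo receptors, had a peak at 41660980 to 41661380 on chromosome 19, 63.4 kb inside its 149 kb span. Slit2 and Slit3, at 326 and 587 kb both longer than Slit1, had none, with their closest peaks 2451 and 90.6 kb away. None of the 3 listed Robo receptor genes had a peak (0 of 3, exact upper limit 70.8%). Robo1 and Robo2 span 1020 and 1555 kb and had their closest peaks 2914 and 514 kb away, and Robo3 was 188 kb from a peak. Of the Slit and Robo genes together, 1 of 6 therefore had a peak (16.7%, 0.421 to 64.1%), the same gene that is shortest among the Slits. That interval included the 7.49% of all protein-coding genes, which are of any length.

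**Figure D2:**
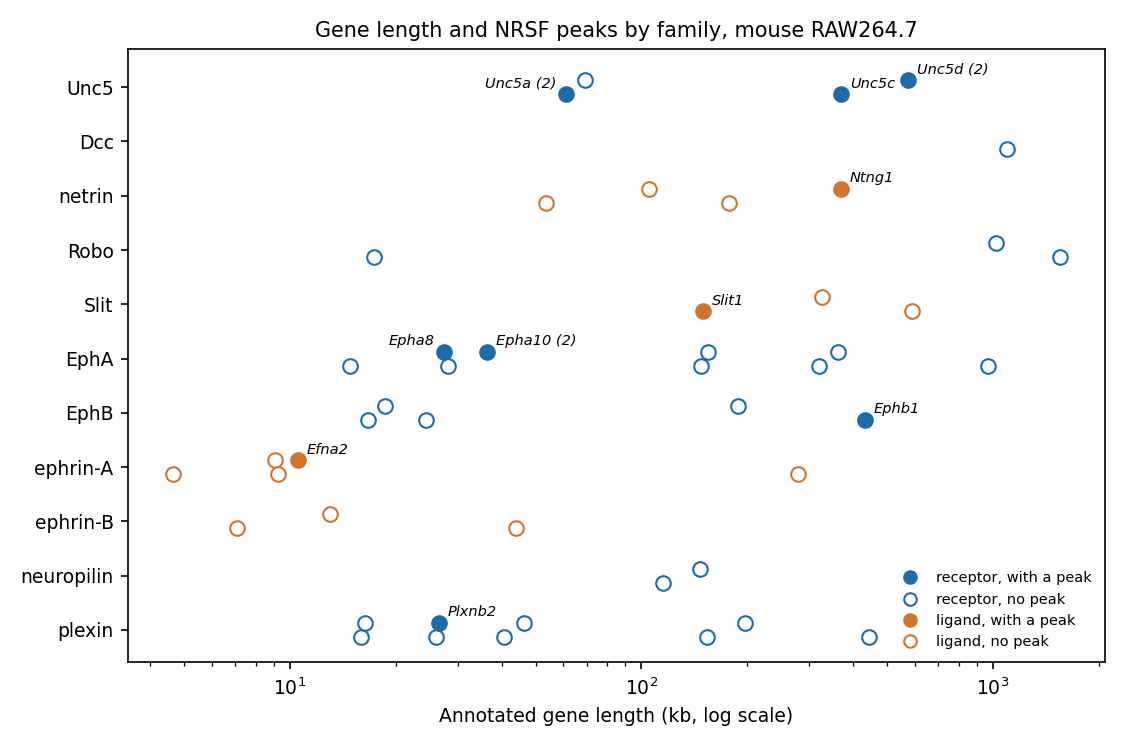
Annotated gene length of the 48 members in kb (log scale) by family, with receptors in blue and ligands in orange; filled symbols have a peak and are named, with the number of peaks in brackets where it is 2. The 4 longest members, between 969 and 1555 kb, are all open symbols, and filled symbols run from 10.5 to 573 kb.

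Eph receptors, which bind ephrins on neighbouring cells, had peaks at 3 of 14 genes (21.4%, 4.66 to 50.8%), beside 13.1% of all protein-coding genes of the same length bins. Epha10, which encodes a receptor that lacks kinase activity, had 2 peaks on chromosome 4. The peak at 124882280 to 124882680 lay 695 bp downstream of its start site, the closest among the 10 peaks at members with a listed start site. It was 1542 bp outside an end of the neighbouring gene Maneal, and within 10 kb of the long noncoding RNA gene 1700125G02Rik. The other, at 124877930 to 124878330, was 3655 bp upstream of the start site and inside Maneal, so it cannot be told apart which of the 2 genes it belongs to. Epha8, a receptor for ephrin-A ligands, had a peak at 136924525 to 136924925 on the same chromosome, 4694 bp beyond the far end of the gene and 32.1 kb from its start site. No other protein-coding gene lay within 10 kb of it. Ephb1, a receptor for ephrin-B ligands that guides retinal axons, had its peak at 102066575 to 102066975 on chromosome 9, deep inside the 433 kb gene and 288 kb downstream of its start site.

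The other 11 Eph genes had no peak. They include the long genes Epha3, Epha5 and Epha6 (321, 363 and 969 kb), whose closest peaks were 785, 1175 and 392 kb away. Epha4 and Epha7, receptors with roles in motor and cortical wiring, were 1888 and 3451 kb from a peak. Among the short genes, Epha1, Epha2, Ephb3, Ephb4 and Ephb6 (14.8 to 28.2 kb) were 179 to 2459 kb away. Ephb2, at 189 kb, was 70.9 kb away. Ephb6 also lacks kinase activity, so of the 2 such Eph genes 1 had peaks. That is too few genes to compare with the 7.49% of all protein-coding genes.

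Of the ephrins, 1 of 8 had a peak (12.5%, 0.316 to 52.7%), beside 7.32% of all protein-coding genes of the same length bins. Efna2, an ephrin-A anchored to the outer cell membrane, had it at 80190750 to 80191150 on chromosome 10, 940 bp beyond the far end of its 10.5 kb span and 11.5 kb from its start site. It was the shortest member with a peak, and no other protein-coding gene lay within 10 kb of that peak. Efna1, Efna3 and Efna4 lie side by side on chromosome 3 and were 112 to 174 kb from the closest peak. Efna5 (278 kb) was 515 kb away. None of the 3 ephrin-B genes, whose products span the membrane, had a peak, with distances of 353 kb for Efnb3, 648 kb for Efnb2 and 3552 kb for Efnb1.

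Plexins and neuropilins, the semaphorin receptors, had a peak at 1 of 11 genes (9.09%, 0.23 to 41.3%), beside 10.1% of all protein-coding genes of the same length bins. Plxnb2, a receptor for class 4 semaphorins, had it at 89150065 to 89150465 on chromosome 15, 5281 bp beyond the far end of the gene. The same peak was 659 bp outside an end of Mapk11, a p38 kinase gene, and 8688 bp from Mapk12, so it lay closer to a gene that is no member. When each peak went to its nearest protein-coding gene alone, Plxnb2 lost its peak, Epha10 kept 1 of 2, and 9 of 48 members had one. The neuropilins Nrp1 and Nrp2, which pair with plexins to bind secreted semaphorins, were 1954 and 255 kb from a peak. Plxna1, Plxna2, Plxna3 and Plxna4 were 73.7, 881, 459 and 122 kb away. Plxnb1, Plxnb3, Plxnc1 and Plxnd1, of which the last 2 are also known from leukocytes, were 267, 97.0, 331 and 324 kb away.

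A gap separated members with a peak from those without. Plxnb2 at 5281 bp was the farthest from its peak among the 10, and Ntng2 at 62.1 kb was the nearest among the 38, whose median distance was 470.0 kb. Widening the reach to 50 kb therefore added no member, 10 of 48 again, whereas the share of all protein-coding genes was 16.2% at that reach. With no reach, 7 of the 48 members had a peak inside the span (14.6%), compared with 4.44% of all protein-coding genes. Within 10 kb of an annotated end, leaving out the deeper interior, the count was 5 of 48 (10.4%), compared with 5.63%. Within 1 kb of an end it was 3 of 48 (6.25%), namely Unc5a, Epha10 and Efna2, compared with 1.58%. These shares by reach and place were not set against genes of like length. No interval was computed for the counts inside the span or near an end, so no excess is read from them. Of the 13 peaks, 9 lay inside a member, and 7 of these were over 10 kb from either end. The same count was not made for peaks at all protein-coding genes, so no trait of the members is read from it.

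**Figure D3:**
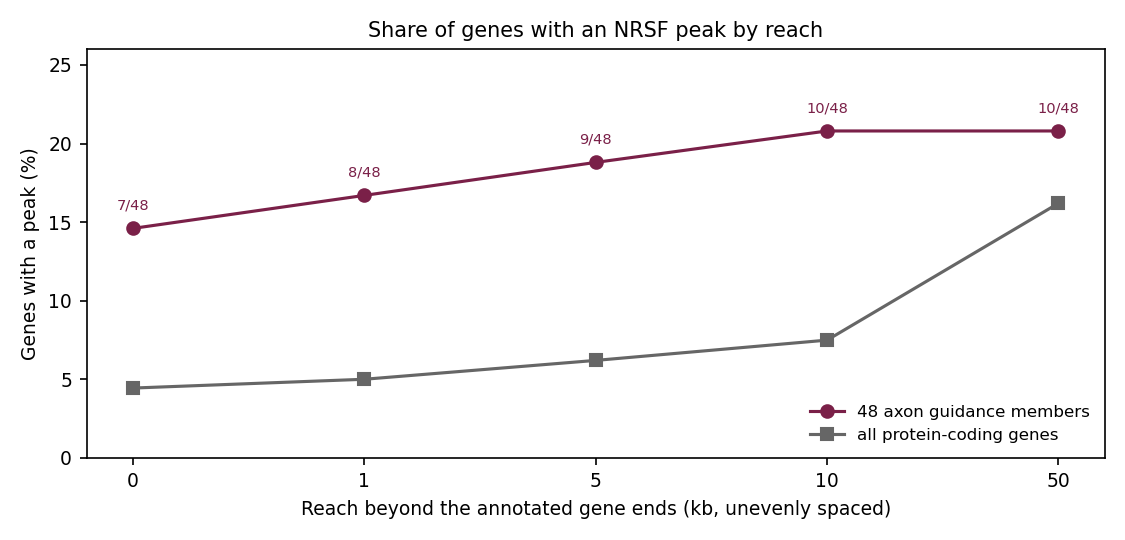
Share of genes with a peak (%) among the 48 members (circles) and all protein-coding genes (squares), for a reach of 0, 1, 5, 10 and 50 kb beyond the gene ends (axis not to scale). The members stay at 20.8% between 10 and 50 kb, where all genes stand at 7.49% and 16.2%. Neither line is adjusted for gene length.

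The members were longer than most genes, with a median span of 87.0 kb, compared with 17.2 kb over all protein-coding genes. The share of all genes with a peak increased with length, being 5.12% up to 20 kb and 37.2% over 500 kb. Members of 20 to 50 kb had a peak in 3 of 9 cases (33.3%, 7.49 to 70.1%), compared with 6.54% of all genes of that length. Those 3 were Epha8, Epha10 and Plxnb2. Members of 200 to 500 kb had one in 3 of 8 cases (37.5%, 8.52 to 75.5%), compared with 21.4%. Over 500 kb the order was the other way round, with 1 of 6 members (16.7%, 0.421 to 64.1%), compared with 37.2%. From 100 to 200 kb the members were also lower, with 1 of 10 (10.0%), compared with 13.3%. Up to 20 kb 1 of 12 members had a peak (8.33%), compared with 5.12%. From 50 to 100 kb it was 1 of 3 (33.3%), compared with 10.4%. In 5 of the 6 bins the interval of the members included the share of all genes, and in the bin of 20 to 50 kb it did not. That exception rested on Plxnb2, whose peak is nearer to Mapk11. With a reach of 5 kb or the nearest gene alone, 2 of 9 members of that bin had a peak (22.2%, 2.81 to 60.0%), and the interval included the 5.2% and 4.87% of all genes there.

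**Figure D4:**
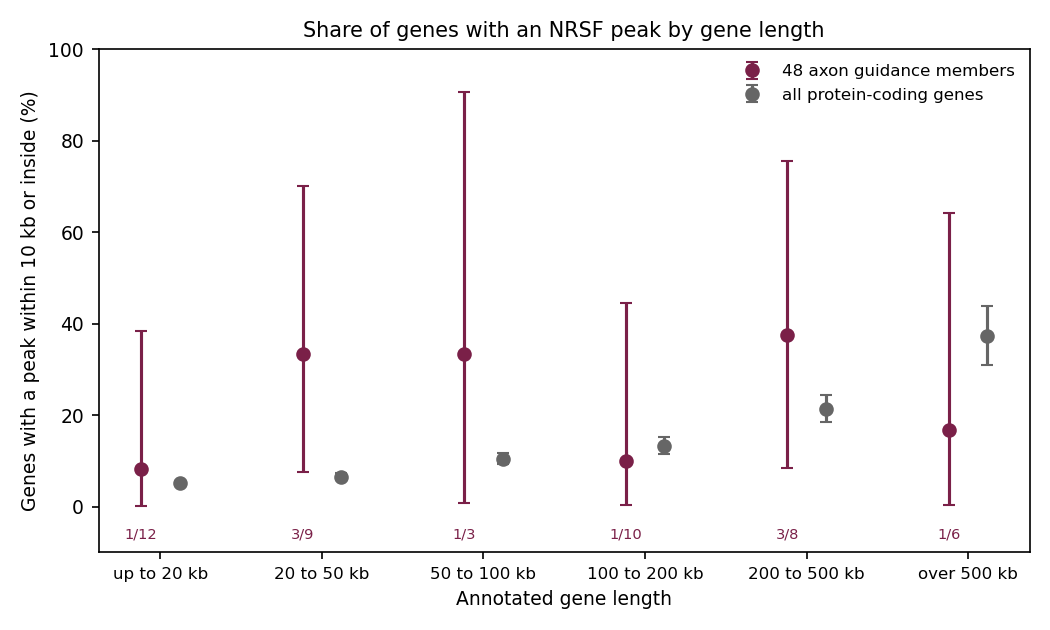
Share of genes with a peak (%) by annotated gene length for the members (left in each bin, with the count below) and all protein-coding genes (right); bars are exact 95% intervals. The members' interval lies above the share of all genes in the bin of 20 to 50 kb, where 3 of 9 members had a peak; with 2 of 9, without Plxnb2, it starts at 2.81% and includes that share.

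Applied to the lengths of the 48 members, the shares of all genes by bin gave 6.79 genes with a peak (14.1%), compared with the 10 found. The interval of the members, 10.5 to 35.0%, included 14.1%. For receptors this number was 4.9, compared with 7 found, and for ligands 1.89, compared with 3 found. Per length of sequence the members had 1.1 peaks per Mb of span and reach, compared with 1.32 over all protein-coding genes, with a peak near several genes counted for each. The 4 longest members, Robo2, Dcc, Robo1 and Epha6, make up 4.72 of the 11.8 Mb and had no peak. Of all 61 protein-coding genes at least as long as Epha6, 23 had one (37.7%, 25.6 to 51.0%). The exact upper limit for 0 of 4 is 60.2%, so that a difference was not detectable with 4 genes. Up to 200 kb, 6 of 34 members had a peak (17.6%, 6.76 to 34.5%), compared with 6.67% of all genes. Lengths still differed on this side of the split, where 10 of the 34 members but 1439 of the 20894 genes were 100 to 200 kb long. The 6 also include Plxnb2, whose peak is nearer to Mapk11, so no excess is read from this split. Over 200 kb, 4 of 14 members had a peak (28.6%, 8.39 to 58.1%), compared with 25.0%.

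The same count was made with every peak moved along the chromosome. Windows moved by 200 kb met 8 of the 48 members in the downward and 4 in the upward direction, and windows moved by 50 kb met 5 and 7, compared with 10 for the peaks. Over all protein-coding genes the moved windows met 6.79 to 7.17%. Some moved windows stayed within the same long gene or within 10 kb of it: Ntng1, Unc5d and Ephb1 were met again in 3 of the 4 shifts or more.

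The rest of the pathway was counted from lists of its other genes, beside the 7.49% of all protein-coding genes. Of 20 semaphorins, the ligands of the plexins, 1 had a peak (5.0%, 0.127 to 24.9%), namely Sema4b, 19.8 kb inside an end. All genes of the same length bins had one in 12.0% of cases. Of 26 other guidance ligands, receptors and adhesion molecules, 5 had one (19.2%, 6.55 to 39.4%), beside 11.5% at their lengths. The closest to an end were Rtn4rl2, a relative of the Nogo receptor, 4748 bp inside, the adhesion molecule L1cam, 11.3 kb inside, and Dscaml1, 43.1 kb inside. Of 42 intracellular effectors 6 had a peak (14.3%, 5.43 to 28.5%), close to the 13.3% at their lengths. Dpysl2 and Crmp1, which encode collapsin response mediator proteins downstream of semaphorins, had 2 peaks each, the closest 1146 and 1517 bp inside an end. Ablim3, an actin-binding protein, had a peak 4173 bp inside an end. Beside these, the members stood at 20.8%, and the intervals of all 4 groups overlapped, so no group of the pathway was set apart from another by these counts.

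**Figure D5:**
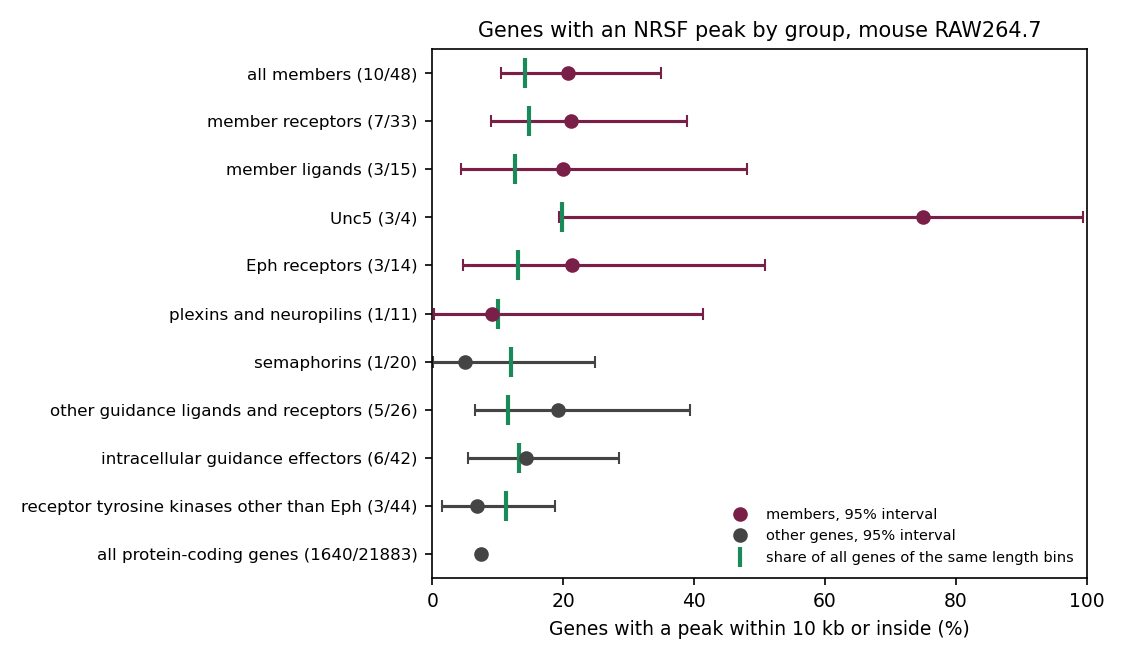
Share of genes with a peak (%, points with exact 95% intervals) for the members and their main groups, for 4 other gene lists and for all protein-coding genes; green marks give the share of all genes of the same length bins. The marks lie within the interval of every group, including all members at 14.1%.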

How the data were processed

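NRSF ChIP-seq was performed on mouse RAW264.7 cells in 2 immunoprecipitated samples, with 1 input DNA sample. The authors deposited 1 mouse peak list for both immunoprecipitated samples, as positions in base pairs on mm10 with no score and no value per replicate. The submitters' processing notes name Bowtie 0.12.8 and MACS 1.4.2. Neither the peak threshold nor how the replicates were joined is given in the sources used here, and read depth is unknown.

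Gene spans were taken from RefSeq on GRCm38.p6 (mm10), and start sites from RefSeq promoter windows of that build. All 48 members matched by symbol. Every peak midpoint was tied to each protein-coding gene whose span lay within 10 kb. Length was taken into account with the shares of all protein-coding genes in 6 length bins. The 95% intervals of shares are exact (Clopper-Pearson) and hold counting error alone. No p-value was computed, since genes are not replicates. The members and the gene lists were chosen with earlier results of these data known. Every member was to be named, and of each other list up to 3 genes with a peak midpoint closest to a gene end. The counting was tested on simulated data. The dog, horse and human lists were not used here. Counts were made in Python 3.11.15 (pandas 2.3.3, numpy 2.4.6), intervals with scipy 1.17.1 and plots with matplotlib 3.10.9.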

Additional observations from a re-analysis of the deposited data

How the results depend on the processing

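Of 36 alternative values, 2 of them added after the data were seen, 32 stayed within 1.5 times the reported count or within the interval of the share, and 4 did not. Those 4 came from counting peaks near gene ends alone, within 10 kb: 5 members, 4 receptors, 1 ligand and 6 peaks at members, compared with 10, 7, 3 and 13. By its construction this setting leaves out peaks deeper inside a gene. Over the reaches from 0 to 50 kb, 7 to 10 members, 5 to 7 receptors and 2 to 3 ligands had a peak. The share of the members was 2.78 times that of all protein-coding genes, 2.62 times with named genes only, and 1.47 times (0.74 to 2.47) at the shares of the same length bins. The last ratio counted among the 32 because it lay within the interval of the first, 1.4 to 4.67. Its own interval includes 1. The reach of 50 kb also counted among them by its 10 members, while the share of all genes rose from 7.49% to 16.2%. No paired analysis was possible because the 2 immunoprecipitated samples share 1 list, and for the same reason no replicate could be left out. A stricter peak threshold could not be tried without peak scores. With 48 genes, differences between families were not detectable at this number.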

Other observations

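Receptor tyrosine kinases outside the Eph family carried peaks at 3 of 44 genes (6.82%, exact 95% interval 1.43 to 18.7%), compared with 3 of 14 Eph receptors (21.4%, 4.66 to 50.8%), and the intervals overlapped. The 3 were Alk, a receptor of the developing nervous system, with a peak 1372 bp inside a gene end, Axl, a receptor that macrophages use in clearing dying cells, 12.0 kb inside, and Ntrk3, the receptor of neurotrophin-3, 83.0 kb inside. At the shares of all genes of the same length bins, 4.97 of these 44 genes and 1.83 of the 14 Eph receptors would have a peak. Neither difference was tested.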
